A study of Mus musculus with 32 samples.

Results

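The genes described here are those of the middle of the mouse IGHV1 family, the V genes IGHV1-40 to IGHV1-66 by number. Members were the clonotypes whose best-scoring V gene had a number from 40 to 66. They made up 193 of the 602 entries of the Vh558 amplicon, or 186 of 565 distinct clonotypes once repeat libraries of a mouse were pooled (139 in WT mice and 47 in KO mice). They carried 28262 of 73148 kept reads, 38.6%, over 9 V genes. The rest of the amplicon was 208 clonotypes of IGHV1 genes numbered up to 39 and 171 of genes numbered 67 and above, and the other amplicons of the series held 0 members.

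Pro-B cells are the bone marrow stage at which the immunoglobulin heavy chain gene is assembled. A D gene joins a JH gene first, and a V gene is then joined to the DJ unit by the RAG recombinase. The ends are often trimmed, the opening of hairpins can leave a few palindromic bases, and the enzyme TdT adds bases that no gene encodes, so that the junction (the CDR3) marks one recombination event. IGHV1, also called J558, is the largest V family of the mouse and lies mostly in the part of the locus far from D, whose use depends on folding of the locus; gene numbers rise with the distance from D. The enzyme SETD2 trimethylates histone H3 at lysine 36, a mark of the bodies of transcribed genes.

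The study sorted pro-B cells (B220+ CD43+ IgM- CD25-) from the bone marrow of untreated mice 8 weeks old, either WT controls or Setd2 knockouts (KO). Genomic DNA was amplified between a Vh558 primer and JH4, a band of 500 bp was cut from a gel and reads of 150 bp were made. The sources used here give neither the allele deleted, the driver of the deletion nor the strain. The amplicons measure neither Setd2 nor the sorting markers, so genotype and cell type rest on the labels.

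Vh558 had 13 of the 32 samples of the series, from 9 mice. The 4 WT mice, 1418, 1432, 1485 and 1536, gave 6 samples, and the 5 KO mice, 1421, 1423, 1464, 1500 and 1534, gave 7. Mice 1418, 1421, 1423 and 1536 had a repeat library, and the mouse was the replicate throughout. Kept reads per library ranged from 612 to 6927 in WT and from 1000 to 9276 in KO mice, while distinct clonotypes ranged from 7 to 188 and from 5 to 36. Reads are PCR copies without molecular identifiers, so intervals on reads or clonotypes cover counting error only, and fewer rearranged cells in the sample and fewer cells amplified cannot be told apart.

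The CDR3 sequences of the largest clonotype of each member gene with at least 5 clonotypes are shown first. The 4 clonotypes that exceeded 25% of the reads of a library are included, because these 9 sequences carry 14088 of the 28262 member reads (49.8%). They are read 5′ to 3′ from the V-encoded cysteine codon to the tryptophan codon of J, and capitals mark the bases assigned to D.
IGHV1-50 IGHD2-8 IGHJ4, KO 1421: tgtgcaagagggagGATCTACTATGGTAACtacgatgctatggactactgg
IGHV1-52 IGHD2-4 IGHJ4, WT 1418: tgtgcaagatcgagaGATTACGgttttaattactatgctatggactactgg
IGHV1-53 IGHD2-6 IGHJ4, KO 1423: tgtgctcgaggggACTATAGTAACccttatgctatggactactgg
IGHV1-55 IGHD2-3 IGHJ4, KO 1464: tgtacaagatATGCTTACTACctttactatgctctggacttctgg
IGHV1-61 IGHD1-1 IGHJ4, KO 1423: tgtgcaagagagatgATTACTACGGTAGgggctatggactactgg
IGHV1-64 IGHD2-4 IGHJ4, KO 1423: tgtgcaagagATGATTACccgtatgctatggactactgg
IGHV1-66 IGHD2-8 IGHJ4, KO 1464: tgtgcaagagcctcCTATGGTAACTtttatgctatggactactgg
IGHV1-55 IGHD2-6 IGHJ4, KO 1421: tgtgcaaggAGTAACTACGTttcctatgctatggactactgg
IGHV1-55 without D IGHJ4, KO 1500: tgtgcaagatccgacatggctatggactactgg
The 9 sequences began and ended much alike and differed in between. Over all members, 133 of 186 began with the 9 bases tgtgcaaga (71.5%), against 241 of 379 clonotypes of other IGHV1 genes (63.6%). Of the 163 members joined to IGHJ4, 137 ended with atggactactgg (84.0%). All 186 lengths were multiples of 3 and 0 members held an in-frame stop codon, as the table lists productive joins. The largest IGHV1-53 clonotype lacked 4 bases of its V end, and the largest IGHV1-55 clonotype of KO 1464 ended in other bases than the rest.

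No member sequence was found in more than 1 mouse, which also held for the other IGHV1 clonotypes. Repeat libraries of the same mouse shared few members. WT 1418 shared 3 members between libraries of 22 and 35 (13.6% and 8.57% of each list). KO 1423 shared 2 between 9 and 9, which held 31.5% and 96.4% of the member reads of the libraries. WT 1536 shared 2 between 10 and 66, and KO 1421 had 6 members in one library and 0 in the other.

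Some small members resembled larger clonotypes of their own library. A member was set apart if it differed by 1 base from a clonotype with more reads and the same V and J, or if its CDR3 could be written as the start of one clonotype and the end of another, both with more reads. This applied to 46 of 186 members (24.7%), 15 of the first kind and 31 of the second, with 382 of 28262 member reads (1.35%). The same search in libraries of other mice matched 13 of 2082 combinations of a member and a library (0.624%). That rate is per combination and the libraries held from 5 to 188 clonotypes, so it is not matched to the rate above. Of the other IGHV1 clonotypes, 106 of 379 were set apart in the same way in their own libraries (28.0%). Whether such sequences arose in the cells or during amplification was not tested, so the results that rest on counts of clonotypes are given with and without them.

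An example of the second kind is an IGHV1-55 clonotype of KO 1464 with 10 reads. Capitals mark the bases it shares with the first source, and its lower-case remainder is the end of the second source.
IGHV1-55, 10 reads: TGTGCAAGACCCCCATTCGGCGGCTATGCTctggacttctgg
first source, IGHV1-55, 1368 reads: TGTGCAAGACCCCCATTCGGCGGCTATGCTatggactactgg
second source, IGHV1-55, 2749 reads: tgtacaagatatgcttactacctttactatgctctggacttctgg
The same mouse had an IGHV1-66 clonotype with 8 reads built alike, from the start of its IGHV1-66 clonotype of 938 reads and the end of the same second source. In KO 1534 the first kind made up 2 of its 3 IGHV1-52 clonotypes, with capitals here marking the base that differs from the clonotype of 56 reads, A17G and A9G counted from the first base of the CDR3.
IGHV1-52, 56 reads, against A17G: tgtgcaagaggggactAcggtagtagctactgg
IGHV1-52, 3 reads, A17G: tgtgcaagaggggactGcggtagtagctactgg
IGHV1-52, 2 reads, A9G: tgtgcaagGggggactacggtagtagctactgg
By mouse, 11 of 19 members were set apart in KO 1464, 7 of 16 in KO 1423, 2 of 4 in KO 1534 and 1 of 6 in KO 1421. In WT mice the numbers were 13 of 54 in 1418, 10 of 74 in 1536 and 2 of 9 in 1432, and it was 0 of 2 in WT 1485 and in KO 1500.

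The middle genes took shares of the clonotypes that overlapped between WT and KO mice, with a higher mean and a wider spread among KO mice. They made up 29.2% of the clonotypes of WT 1418, 39.1% of WT 1432, 28.6% of WT 1485 and 31.5% of WT 1536. They made up 37.5% of KO 1421, 28.1% of KO 1423, 59.4% of KO 1464, 40% of KO 1500 and 80% of KO 1534. The genotypes overlapped, as KO 1423 lay below every WT mouse and only KO 1464 and 1534 lay well above. The mean over the 4 WT mice was 32.1% ± 4.86 (SD), and that over the 5 KO mice was 49.0% ± 20.7 (SD). The highest share rested on 4 of 5 clonotypes, with a Wilson 95% interval from 37.6% to 96.4%.

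Without the clonotypes that resemble larger ones the means were 34.0% ± 5.41 in WT and 44.4% ± 13.8 in KO mice, and KO 1464 was at 47.1%. By reads the means were almost equal, 36.9% ± 18.1 in WT and 37.2% ± 22.1 in KO mice, and KO 1534 was at 11.5%. In the sequencing batch with 3 mice of each genotype the mean share was 28.9% in WT and 59.8% in KO mice. The genotypes did not overlap there, with WT mice from 18.9% to 39.1% and KO mice from 40% to 80%. The values of 40% and 80% rested on 5 clonotypes each. In the batch with 1 WT and 2 KO mice the mean share was 27.8% and 42.5%. In the batch with repeat libraries of 2 and 2 mice it was 31.4% and 14.5%. The lower KO mean there rested on the library of KO 1421 with 0 members among 7 clonotypes, as KO 1423 was at 29.0% and the WT mice at 27.8% and 35.1%. The difference of 16.9 points over all mice was 9.14 without KO 1534, the mouse that moved it most. Of the 15 V genes outside the middle, the 10 with at least 10 clonotypes were compared with the middle share, and over the 9 mice none of them had a Pearson r above 0. The highest were those of IGHV1-69 (-0.007), IGHV1-72 (-0.13) and IGHV1-18 (-0.20), which share the same total by construction.

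**Figure D1:**
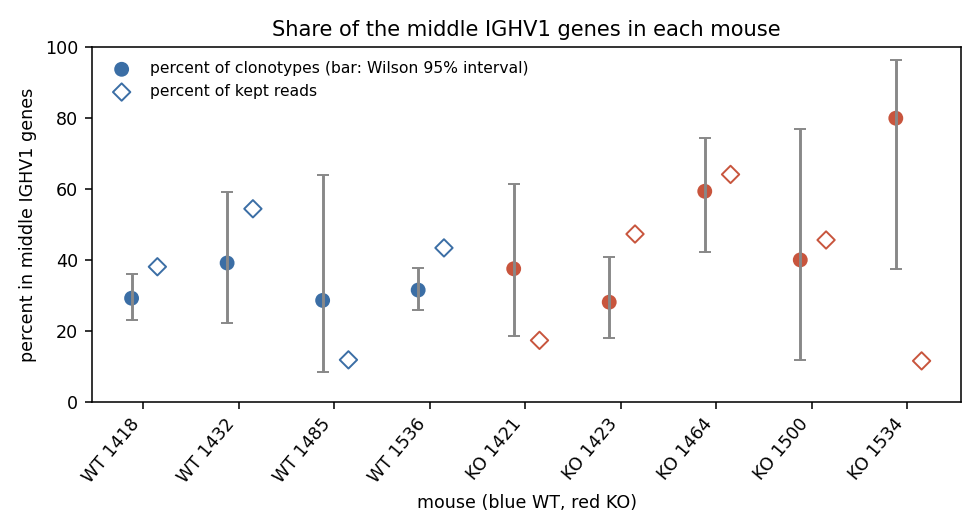
Percent of distinct clonotypes (filled circles, bars are Wilson 95% intervals) and percent of kept reads (open diamonds) in the middle IGHV1 genes, for each WT (blue) and KO (red) mouse. By clonotypes KO 1534 reached 80% on 4 of 5 clonotypes, and by reads it was at 11.5%.

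The mouse gene table of RefSeq (GRCm38.p6, used for names only) lists 30 Ighv1 genes numbered 40 to 66, of which 19 are V segments and 11 are pseudogenes. Members came from 9 of the 19 V segments and from 0 of the pseudogenes. The V segments with no member were Ighv1-42, 1-43, 1-47, 1-49, 1-54, 1-58, 1-59, 1-62-1, 1-62-2 and 1-63. The V call had a single hit in 175 of 186 members, and in 5 members the best hit was tied with another V gene. IGHV1-55 led with 65 clonotypes, followed by IGHV1-53 with 36, IGHV1-52 with 21, IGHV1-50 and IGHV1-64 with 19 each, IGHV1-61 with 15, IGHV1-66 with 9, and IGHV1-56 and IGHV1-62-3 with 1 each.

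IGHV1-55 had the most clonotypes of the member genes in 4 of the 9 mice and was missing from 3. It had 13, 5, 0 and 26 clonotypes in WT 1418, 1432, 1485 and 1536, and 2, 0, 17, 2 and 0 in KO 1421, 1423, 1464, 1500 and 1534. As a share of all clonotypes this was 9.96% ± 9.09 (SD) over the 4 WT mice and 21.1% ± 24.2 (SD) over the 5 KO mice, with KO 1464 at 53.1% and KO 1500 at 40%. Of the 17 clonotypes in KO 1464, 7 were left without those that resemble larger ones. The gene held 12919 reads, 45.7% of all member reads, spread over clonotypes of which the largest had 2749.

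IGHV1-53 was the member gene found in all 4 WT mice. It had 15, 2, 1 and 11 clonotypes in WT 1418, 1432, 1485 and 1536, and 3 and 4 in KO 1421 and 1423, with 0 in the other 3 KO mice. Its share was 8.94% ± 3.98 in WT and 5.15% ± 8.19 in KO mice. IGHV1-50 had 7, 0, 1 and 9 clonotypes in the WT mice in the same order, and 1 each in KO 1421 and 1423. Both genes were thus absent from KO 1464, 1500 and 1534, but KO 1500 and 1534 had only 5 clonotypes each in all. IGHV1-50 was also absent from WT 1432.

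IGHV1-52 had 9 clonotypes each in WT 1418 and 1536 and 3 in KO 1534, and 0 in the other 6 mice. The 3 in KO 1534 are the single sequence with its neighbours at 1 base shown above, so that its share of 60% there rested on 1 clonotype and its near copies. IGHV1-64 had 5 and 8 clonotypes in WT 1418 and 1536, 5 in KO 1423 and 1 in KO 1534. IGHV1-61 had 2, 1 and 6 in WT 1418, 1432 and 1536 and 6 in KO 1423. IGHV1-66, the member farthest from D by number, had 3 and 4 in WT 1418 and 1536 and 2 in KO 1464. The single IGHV1-56 clonotype, of 5 reads, was in WT 1432, and the single IGHV1-62-3 clonotype, of 3 reads, was in WT 1536. The mice with the most clonotypes, WT 1418 and 1536, held 7 and 8 of the 9 genes. WT 1432 and 1485 held 4 and 2, and KO mice held between 1 and 4.

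**Figure D2:**
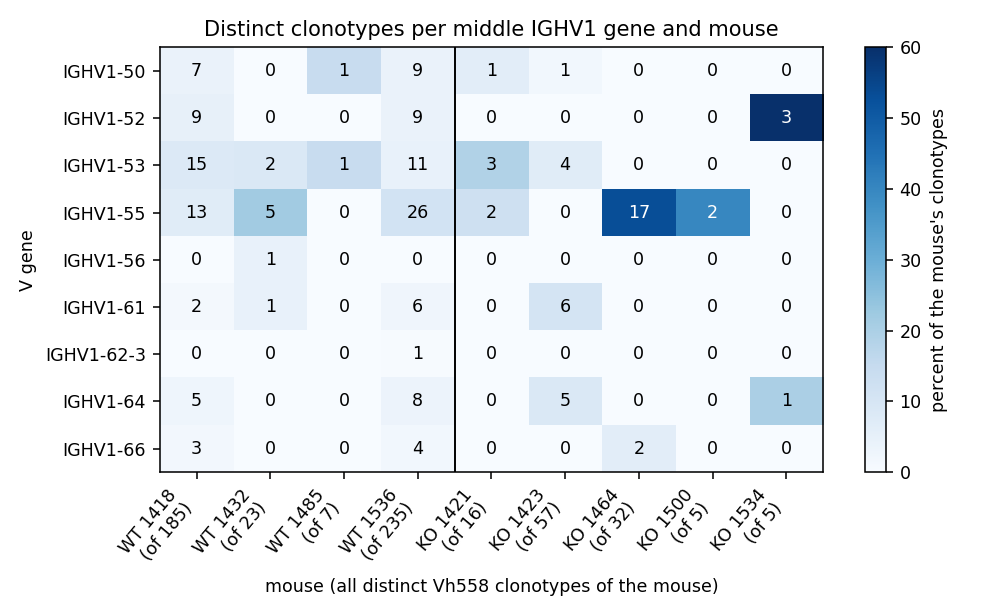
Number of distinct clonotypes (printed) of each middle IGHV1 gene in each mouse, with colour for the percent of all Vh558 clonotypes of that mouse and WT mice left of the line. IGHV1-55 took 17 of 32 clonotypes in KO 1464 and IGHV1-52 took 3 of 5 in KO 1534.

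The question whether Setd2 loss changed use of single V genes was put to all V genes of the amplicon with at least 10 clonotypes. Of 16 genes tested with edgeR's quasi-likelihood test, 0 were called at an adjusted p of 0.05 (0%), and 0 of the 6 member genes among them. DESeq2 also called 0. Without adjustment, edgeR gave 2 of the 16 genes a p under 0.05, neither a member, and DESeq2 gave 0. The other member genes, IGHV1-56, IGHV1-62-3 and IGHV1-66, had too few clonotypes for the test.

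The member gene with the highest log2 fold change, KO over WT, in edgeR's fit was IGHV1-61, at 0.99 (edgeR, adjusted p = 0.856). Its KO clonotypes were all in 1423. Its mean share per mouse was nearly equal, 1.996% over the WT mice and 2.105% over the KO mice. IGHV1-55 followed at 0.98 (edgeR, adjusted p = 0.856), and without KO 1464 its value was -0.78. IGHV1-64 was at 0.83 and was at -0.52 without KO 1423. IGHV1-52 was at 0.01 and was at -4.44 without KO 1534. DESeq2 put IGHV1-52 highest of the members, at 1.90 (SE 3.02), and its mean share was 2.17% over the WT mice and 12% over the KO mice, the latter from KO 1534 alone. On the other side IGHV1-50 was at -1.03 and IGHV1-53 at -0.26, the latter at 0.20 without KO 1464. Without the clonotypes that resemble larger ones, edgeR put IGHV1-61 at 0.86, IGHV1-55 at 0.53, IGHV1-53 at 0.46 and IGHV1-64 at 0.22. IGHV1-50 was then at -0.42 and IGHV1-52 at -1.20. The median log2 fold change was 0.42 over the 6 members and -0.19 over all 16 genes, and 4 members and 7 of all 16 genes lay above 0. DESeq2's standard errors for the 6 members ran from 1.47 to 3.02 on the log2 scale, each above the size of its fold change.

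Member clonotypes were mostly small, as were the other IGHV1 clonotypes. The median of members was 12 reads, 91 of 186 had at most 10 reads (48.9%) and 15 had at least 500 (8.06%). For the other IGHV1 clonotypes the median was 10 reads, 196 of 379 had at most 10 (51.7%) and 21 had at least 500 (5.54%). Of the 15 members with at least 500 reads, 10 were in KO mice and 5 in WT mice, although WT mice had 139 of the 186 members. The other IGHV1 clonotypes of that size were not split by genotype. Kept reads per mouse averaged 8650 in KO and 7475 in WT mice, over means of 23 and 112.5 clonotypes of any IGHV1 gene. The largest member of a mouse took 8.72% of its library in WT 1418, 22.1% in WT 1432, 9.74% in WT 1485 and 4.90% in WT 1536. It took 28.8% in KO 1421, 31.0% in KO 1423, 31.5% in KO 1464, 45.04% in KO 1500 and 5.60% in KO 1534.

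A member above 25% of the reads of a library was thus seen in 4 of 5 KO mice and in 0 of 4 WT mice. This was not limited to members: a clonotype of another IGHV1 gene passed 25% in 4 of 5 KO mice and in 1 of 4 WT mice, an IGHV1-72 clonotype at 88.5% in KO 1534 and one at 70.5% in WT 1485 being the largest. The difference between genotypes in these counts was not tested. KO libraries also held fewer clonotypes in all, 5 to 36 against 7 to 188, and the part of that in the share of the largest clonotype was not tested. The clonotypes were IGHV1-55 in KO 1421 (1545 reads), KO 1464 (2749 reads) and KO 1500 (695 reads), and IGHV1-61 in KO 1423 (2873 reads in the library concerned and 4177 over both). In WT 1418 and 1536 the largest member held 14.97% and 9.64% of the member reads of the mouse, against 40.5% in WT 1432, 82.6% in WT 1485 and 48.7% to 98.7% in the KO mice.

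As a mean over clonotypes, member size did not separate the genotypes. The mean log2 reads per clonotype was 4.41, 4.56, 8.18 and 3.58 in WT 1418, 1432, 1485 and 1536, and 5.44, 4.59, 4.11, 6.31 and 3.54 in KO 1421, 1423, 1464, 1500 and 1534. The difference, KO minus WT, was -0.39 with a 95% interval from -3.22 to 1.86 (exact permutation test, p = 0.77, adjusted p = 1). Its sign turned without the clonotypes that resemble larger ones, to 0.41. Against the other IGHV1 clonotypes of the same mouse the mean difference was 0.003, higher in 6 of 8 mice, with an interval from -1.16 to 0.82 (exact sign-flip permutation test, p = 1). That mean joined opposite values, 0.60 within the WT mice, where members were larger in 4 of 4, and -0.60 within the KO mice, where they were larger in 2 of 4. KO 1421 was the mouse that moved it most, and without it the value was 0.37, higher in 6 of 7 mice (exact sign-flip permutation test, unadjusted p = 0.0625). The p-values in this text for the 14 measures of members were adjusted together by the Benjamini-Hochberg method, and the smallest p the designs allow is 0.00794 between genotypes and 0.00781 within mice.

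**Figure D3:**
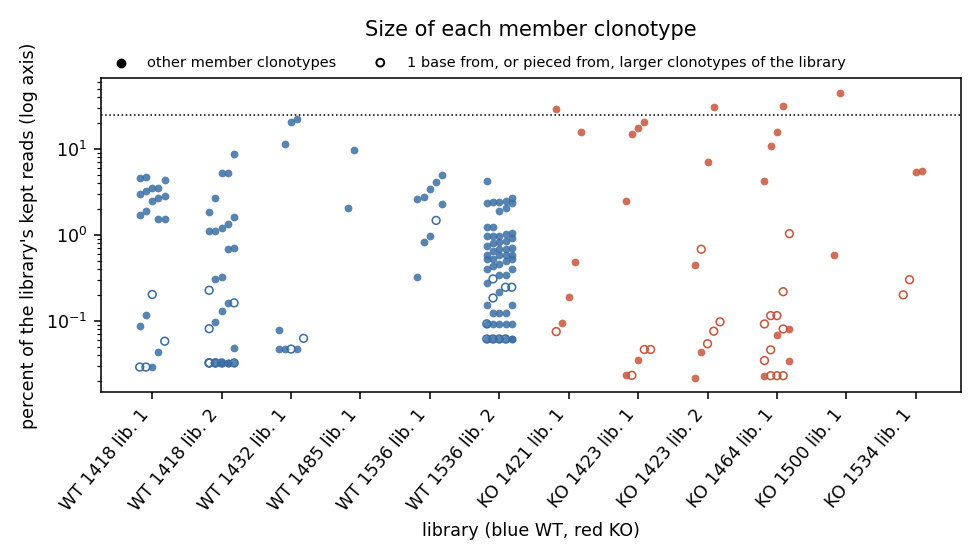
Size of each member clonotype as percent of the kept reads of its library, on a log axis, for 12 of the 13 libraries (KO 1421 had 0 members in its other library). Open circles are clonotypes 1 base from, or written from parts of, larger ones; the dotted line is 25%, passed in 4 KO libraries and in 0 WT libraries.

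The CDR3 of members had a mean length of 44.3 nt ± 8.81 (SD over 186 clonotypes), from 21 to 72 nt, against 45.05 nt ± 8.03 over 379 other IGHV1 clonotypes. Between member genes the mean ran from 40.7 nt in IGHV1-52, 41.0 in IGHV1-61, 41.7 in IGHV1-53 and 42 in IGHV1-66 to 46.0 in IGHV1-55, 47.4 in IGHV1-50 and 48.2 in IGHV1-64. The SD within a gene was 5.88 to 9.39 nt, about as wide as the span of the means. Length went with the J gene. Members with IGHJ4 averaged 45.3 nt (n = 163), those with IGHJ3 37.7 nt (n = 16) and those with IGHJ2 35.5 nt (n = 6).

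Mean member length per mouse was 44.7, 41.7, 43.5 and 44.5 nt in WT 1418, 1432, 1485 and 1536, and 39.5, 42.2, 48.8, 39 and 39.8 nt in KO 1421, 1423, 1464, 1500 and 1534. KO 1464 lay above all WT mice and 3 KO mice lay below all of them. The difference, KO minus WT, was -1.75 nt, with an interval from -5.95 to 4.07 (exact permutation test, p = 0.468, adjusted p = 0.926). Without KO 1464 it was -3.48 nt (exact permutation test, unadjusted p = 0.0571), and without KO 1421 and KO 1500 in turn it was -1.16 and -1.03 nt. Among joins to IGHJ4 alone, which left 3 mice of each genotype, it was 2.13 nt in the other direction.

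Within mice, the mean length of members minus that of the other IGHV1 clonotypes was -1.05 nt, with members shorter in 6 of 8 mice, longer in 1 and equal in 1. The interval of the difference ran from -2.46 to 0.43 nt (exact sign-flip permutation test, p = 0.141, adjusted p = 0.656). KO 1423 was the mouse with longer members, by 2.16 nt, and without it the difference was -1.51 nt with an unadjusted p of 0.0312 (exact sign-flip permutation test). Leaving out any other mouse gave an unadjusted p from 0.141 to 0.281 (exact sign-flip permutation tests). Without the clonotypes that resemble larger ones the difference was -1.03 nt, with an unadjusted p of 0.0469 (exact sign-flip permutation test). Among joins to IGHJ4 it was -0.49 nt.

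**Figure D4:**
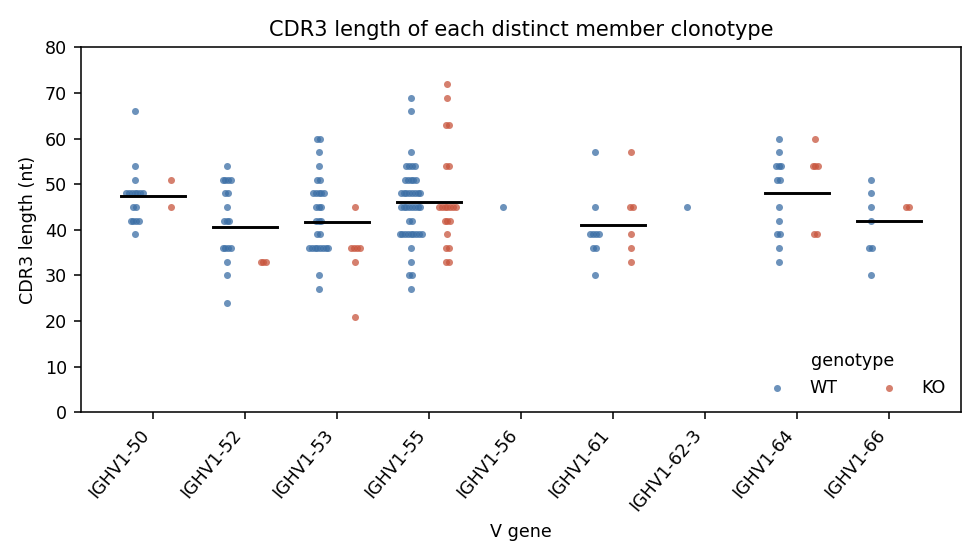
CDR3 length in nucleotides of every distinct member clonotype by V gene, with WT in blue, KO in red and the mean over both as a black line. Gene means lie between 40.7 and 48.2 nt, within the scatter of single clonotypes.

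Most V ends of members were whole. The V end was untouched in 91 of 186 members (48.9%), carried palindromic bases in 55 (29.6%) and was trimmed in 40 (21.5%), by 4 bases or more in 10. In the other IGHV1 clonotypes palindromic bases were seen in 78 of 379 (20.6%) and trimming in 110 (29.0%). Among member genes IGHV1-52 stood at one end, with 1 of 21 ends trimmed and 10 with palindromic bases. Of those 10, 9 were the 9 IGHV1-52 clonotypes of WT 1418, against 1 of 9 in WT 1536 and 0 of 3 in KO 1534. Those of WT 1418 included clonotypes of 5 and 2 reads, 54 and 24 nt long, that resemble parts of larger ones. IGHV1-50 and IGHV1-53 had 6 of 19 and 11 of 36 trimmed, and IGHV1-66 had palindromic bases in 0 of 9. Of the 6 trimmed IGHV1-50 ends, 5 were among the 7 of WT 1418 and 1 among the 9 of WT 1536. The 5 of WT 1418 were its IGHD3 joins. Of these, 2 resembled larger clonotypes, and another, of 10 reads, was 1 base from the one of 329 reads. The counts of these genes thus differed between mice of the same genotype, but they include near copies and are not counts of separate joins. Over mice, palindromic bases were seen in 23 of 54 members in WT 1418 but in 13 of 74 in WT 1536, 2 mice of the same genotype.

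The mean number of bases trimmed from the V end was 0.53 ± 0.53 (SD) over the 4 WT mice and 0.56 ± 0.57 (SD) over the 5 KO mice. The difference of 0.03 bases had an interval from -0.84 to 0.90 (exact permutation test, p = 0.952). Within mice, members and other IGHV1 clonotypes differed by 0.04 bases, with an interval from -0.35 to 0.51 (exact sign-flip permutation test, p = 0.891). KO 1464 had 0 trimmed bases in its 19 members and in its 13 other clonotypes. Bases inserted between the segments averaged 7.63 ± 2.22 in WT and 6.85 ± 2.37 in KO mice, a difference of -0.78 with an interval from -4.83 to 3.37 (exact permutation test, p = 0.595).

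**Figure D5:**
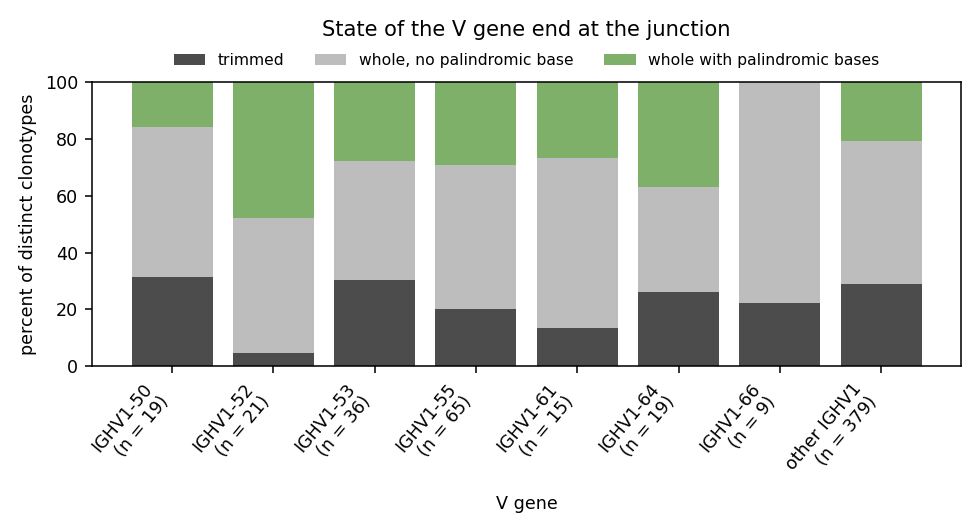
Percent of distinct clonotypes with a trimmed V end, a whole V end, or a whole V end with palindromic bases, for the 7 member genes with at least 5 clonotypes and for all other IGHV1 clonotypes. IGHV1-52 has 1 of 21 V ends trimmed, and IGHV1-66 has palindromic bases in 0 of 9.

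D partners of members came mainly from IGHD2 and IGHD1. Of 162 members with a D call, 87 had an IGHD2 gene (DSP2 family, 53.7%), 40 IGHD1-1 (DFL16, 24.7%), 17 IGHD3 (DST4, 10.5%), 10 IGHD5 (6.17%) and 8 IGHD4 (DQ52, 4.94%), and 24 members had no D call. The other IGHV1 clonotypes had 52.5% IGHD2 and 25.7% IGHD1. No D was called in 23 of 139 members of WT mice (16.5%) and in 1 of 47 of KO mice (2.13%), against 27 of 311 (8.68%) and 13 of 68 (19.1%) of the other IGHV1 clonotypes. The 24 members were 13 in WT 1536, 8 in WT 1418, 2 in WT 1432 and 1 in KO 1500. Among member genes IGHV1-50 had the most IGHD3, in 8 of 19 clonotypes, 5 of them in WT 1418 and 3 in WT 1536, of which 3 in all resembled larger clonotypes. IGHV1-66 had IGHD2 in 7 of 9, and IGHV1-55 in 38 of 65.

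The IGHD1 share was 19.6%, 0%, 50% and 31.1% in WT 1418, 1432, 1485 and 1536, and 0%, 18.8%, 21.1%, 0% and 100% in KO 1421, 1423, 1464, 1500 and 1534. The 0% of KO 1500 rested on 1 member with a D call. The genotypes overlapped over the whole WT range, with a difference of 2.78 percentage points and an interval from -40.6 to 63.7 (exact permutation test, p = 0.968), and without KO 1534 the difference was -15.2. Within mice the share of members minus that of other IGHV1 clonotypes was -13.4 points, lower in 6 of 8 mice, with an interval from -26.9 to 0.64 (exact sign-flip permutation test, p = 0.0547, adjusted p = 0.656). It was -15.8 points without WT 1418 and -16.2 without KO 1423, at unadjusted p = 0.0469 and 0.0312 (exact sign-flip permutation tests). These were the 2 mice in which members had the higher share, by 3.99 and 6.25 points. Leaving out any other of the 8 mice gave an unadjusted p from 0.0781 to 0.109 (exact sign-flip permutation tests). Of all 14 tests 0 passed after adjustment, and 0 had an unadjusted p under 0.05.

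The IGHD2 share was 54.3%, 57.1%, 0% and 52.5% in the WT mice in the same order, and 66.7%, 56.2%, 63.2%, 100% and 0% in the KO mice. Apart from WT 1485 and KO 1534, with 2 and 4 members, all mice lay above 50%, but the 100% of KO 1500 rested on 1 member with a D call. The difference, KO minus WT, was 16.2 points, with an interval from -33.3 to 66.7 (exact permutation test, p = 0.397). It was 2.57 points without WT 1485, 5.53 without KO 1500 and 30.5 without KO 1534, the last with an unadjusted p of 0.0571 (exact permutation test). Within mice, members had 9.75 points more IGHD2 than other IGHV1 clonotypes, with an interval from -13.1 to 36.9 (exact sign-flip permutation test, p = 0.422), and within WT mice alone the value was -9.93. Without KO 1500 it was 1.62, and without KO 1421 or WT 1485 it was 6.38 and 14.7. With all mice but without the clonotypes that resemble larger ones it was 4.93.

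IGHJ4 was the J gene of 163 of 186 members (87.6%), with 16 to IGHJ3, 6 to IGHJ2 and 1 to IGHJ1. The reverse primer lay at JH4 and a single band was cut, so the assay itself selects among J genes, and its part in these shares was not tested. IGHV1-64 and IGHV1-66 were joined to IGHJ4 in all 19 and 9 clonotypes, IGHV1-55 in 62 of 65, IGHV1-53 in 27 of 36 and IGHV1-52 in 15 of 21. The share was 90.7%, 55.6%, 50% and 100% in WT 1418, 1432, 1485 and 1536, and 50%, 75%, 89.5%, 50% and 25% in KO 1421, 1423, 1464, 1500 and 1534.

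The 5 mice with fewer than 10 members had IGHJ4 shares from 25% to 55.6%, and the other 4 had shares from 75% to 100%. Means were 74.1% ± 24.98 (SD) over the 4 WT mice and 57.9% ± 24.98 (SD) over the 5 KO mice, a difference of -16.2 points with an interval from -57.9 to 29.5 (exact permutation test, p = 0.349, adjusted p = 0.926). It was -7.54 points without WT 1536 and -7.96 without KO 1534, and -10.6 without WT 1418. Within mice the share of members minus that of other IGHV1 clonotypes was -7.60 points, lower in 5 of 8 mice, with an interval from -18.9 to 3.49 (exact sign-flip permutation test, p = 0.141).

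The genotype differences were also taken within sequencing batches. In the batch of 3 WT and 3 KO mice, KO minus WT was -2.68 nt for CDR3 length, 0.11 bases for V trimming and 0.56 for inserted bases. It was -13.7 points for IGHJ4, 12.6 for IGHD1, 13.1 for IGHD2 and -0.76 for log2 reads there. In the batch of repeat libraries, with 2 WT mice and 1 KO mouse with members, the values were 3.72 nt, -0.48 bases and -1.98 bases. For IGHJ4, IGHD1 and IGHD2 they were -3.97, 8.17 and 13.2 points, and for log2 reads 1.25. In the batch of 1 WT and 2 KO mice they were -8.52 nt, 0.52 bases and -2.68 bases. For IGHJ4, IGHD1 and IGHD2 they were -37.1, -9.44 and 0.56 points there, and for log2 reads -0.22. IGHJ4 and IGHD2 kept their sign in the 3 batches and the other measures did not. The batches are not separate sets of mice, as all mice of the batch of repeat libraries are also in the other 2. With so few mice none of these tests could pass a p of 0.05.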

How the data were processed

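Clonotypes are CDR3 sequences with V, D and J genes. The authors deposited one table over all samples with counts of reads per clonotype, the fraction of clone reads, and positions and trimmed lengths in nucleotides; per the file headers its layout is that of MiXCR, which the series title names. The sources used here give no version, settings or build. The table held 930 productive entries of at least 2 reads; 1 library (19 entries) matched no sample and was not used, and a second run of KO 1534 was used as an alternative. The deposited single lists of counts name human V genes and served for a check only: 72.5% of member entries, with 99.2% of their reads, were found there by CDR3. Segments were cut from the deposited positions, as the segment strings were off by 1 base.

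Members, classes and lists were chosen with earlier results of these data known. Distinct clonotypes of a mouse were pooled over its libraries. Measures with at least 2 member clonotypes per mouse were compared with two-sided exact permutation tests (KO minus WT) or exact sign-flip tests (within mice), with intervals from inverting them. V genes were tested with edgeR 4.0.16 (R 4.3.3, limma 3.58.1), total clonotypes as offset, and with DESeq2 1.42.0; the methods were tested on simulated data. Other steps used Python 3.11.15 with pandas 2.3.3, numpy 2.4.6, scipy 1.17.1 and matplotlib 3.10.9. Every member gene is named, and sequences are the largest clonotype of each gene with at least 5 clonotypes and each above 25% of a library. Whether the mice came from separate litters is not given, so p-values measure the spread between these mice. Sequenced reads per library ranged from 53277 to 121353. The label text on library making names poly-A selection beside genomic DNA.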

Additional observations from a re-analysis of the deposited data

Results flagged for a closer look

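Over 20 sets of 4 or 5 mice, 2 held a mouse far from the others of its genotype. The threshold used gives about 1 in 20 by chance for normally distributed values. The sets here share mice, and some shares rest on 1 or 2 members with a D call, so that rate may not hold. The IGHD1 share of members was 100% in KO 1534, with the next KO mouse at 21.1%; KO 1534 had 4 members, of which 3 were 1 sequence and its neighbours at 1 base. The IGHD2 share was 0% in WT 1485, with the next WT mouse at 52.5%; WT 1485 had 2 members. The second run of KO 1534, which entered only as an alternative, held 2 members, an IGHV1-64 clonotype with 249 reads and an IGHV1-52 clonotype with 19 reads. Both were also in the first run, and the IGHV1-52 neighbours at 1 base were not among the 3 entries of the second run.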

How the results depend on the processing

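Of 322 recomputed values 279 kept their direction and their side of the threshold, 37 changed sign, 4 passed an unadjusted p of 0.05 and 2 moved. Some of the 279 could not change, so that count overstates how stable the results are. No sequence was held by 2 or more mice, so leaving such sequences out gave the same values again. The values between genotypes at a minimum of 1 clonotype per mouse were also unchanged, as every mouse already entered. KO 1534 entered no within-mouse comparison, so leaving it out did not change those values. Its second run held no new clonotype and changed only the size between genotypes. The count of V genes called was 0 under each alternative run. With clonotypes of at least 10 reads, KO minus WT was 1.53 nt for CDR3 length and -0.23 for V trimming, and middle minus other was -0.091 for V trimming. Weighted by reads, the middle share differed by 0.25 points between genotypes, and V trimming by -0.26 between genotypes and -0.12 within mice. With at least 1 clonotype per mouse, size within mice differed by -0.69. With at least 5, V trimming was -0.35, IGHD1 -3.64 and size 0.53 between genotypes, and V trimming was -0.11 and size -0.30 within mice. In the batch of 3 and 3 mice inserted bases differed by 0.56. In that of 2 and 2, the share was -16.9, CDR3 length 3.72, V trimming -0.48 and size 1.25, the last 3 over 2 WT and 1 KO mouse, as KO 1421 had 0 members there. Within WT mice V trimming was -0.11 and IGHD2 -9.93; within KO mice size was -0.60. Alternatives added after the data were seen were the batch of 1 WT and 2 KO mice (IGHD1 -9.44 between genotypes), joins to IGHJ4 (CDR3 length 2.13 between genotypes) and leaving out clonotypes that resemble larger ones (size 0.41 between genotypes; CDR3 length -1.03, unadjusted p = 0.0469 by exact sign-flip permutation, and inserted bases 0.46 within mice). Leaving out each mouse in turn gave, between genotypes, the share from 9.14 to 22.1, CDR3 length from -3.48 to -1.03, IGHJ4 from -24.2 to -7.54, IGHD2 from 2.57 to 30.5, V trimming from -0.20 to 0.26, inserted bases from -1.66 to 0.12, IGHD1 from -15.2 to 11.1 and size from -0.92 to 0.61. Within mice it gave CDR3 length from -1.51 to -0.63, V trimming from -0.12 to 0.13, IGHD1 from -16.2 to -10.5, IGHD2 from 1.62 to 14.7, IGHJ4 from -10.5 to -4.40, inserted bases from -0.61 to -0.041 and size from -0.22 to 0.37. The cause of these changes was not tested. The labels give no replicate numbers shared by WT and KO mice, so no such block was fitted; batch as a covariate left the count of V genes at 0. The libraries hold few clonotypes: 3 of 9 mice had fewer than 5 members, so single clonotypes set their shares.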
